A study of Mus musculus with 8 samples.

Results

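Glycolysis splits glucose into pyruvate in the cytosol, and lactate dehydrogenase can then turn pyruvate into lactate. Haematopoietic stem cells are known for a strong use of this pathway at rest, and hypoxia-inducible factor 1, a transcription factor that is stable at low oxygen, is a known activator of many of its genes. The genes described here are 10 glycolytic enzyme genes, Hk1, Hk2, Gpi1, Pfkl, Aldoa, Gapdh, Pgk1, Eno1, Pkm and Ldha, chosen by their symbol in the count table and followed in haematopoietic stem cells (HSC) against multipotent progenitors (MPP). The 10 symbols matched 11 of the 53700 entries, because Aldoa had 2 entries. Its second entry held counts-per-million (CPM) values of 0 to 2.24 in the 8 libraries, and Aldoa below means the first. All 11 entries were among the 12132 genes with enough counts to be tested.

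The study sequenced polyadenylated RNA of sorted mouse bone marrow cells, with 1 library for each of 2 cell types and 4 donor genotypes. HSC were the CD48- CD150+ and MPP the CD48+ CD150- cells of the LSK gate (lineage-negative, Sca-1+, c-Kit+), and both were CD45.2 donor cells taken 13 weeks after bone marrow was transplanted into irradiated wild-type CD45.1 mice. Each library was 1 pool of cells from 5 recipient mice. The donors were WT (Nfat5 +/+ Vav-Cre), N5 (Nfat5 fl/fl Vav-Cre, with Nfat5 deleted in blood-forming cells, where the Vav promoter drives Cre), IFNAR (IFNAR1-deficient) and DKO (deficient for both). NFAT5 is a transcription factor known for switching on genes under osmotic stress, while IFNAR1 is a subunit of the type I interferon receptor. All recipients were wild type and irradiated, so every library came from transplanted marrow. No group was replicated. The p-values below therefore measure the spread between these pooled libraries, taking cell type and genotype effects as additive.

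Total counts ran from 28871693 to 47205950 per library, and the least abundant of the 10 genes, Hk2, had at least 1194 counts in each. Marker RNA followed the sorting labels: 8 of 8 stem cell markers were higher in HSC, with a summed level of 637 to 828 CPM against 169 to 254 CPM in MPP, and 5 of 5 progenitor markers were lower, at 256 to 549 CPM against 6783 to 11690 CPM. Among markers of other cells, Cd3d, Cd3e and Cd3g were at 0 in all 8 libraries, as were Cdh5, Lepr and Col1a1. The other genes of those lists had counts in at least 1 library: the 8 T and NK cell markers summed to 33.8 to 66.6 CPM in HSC and 308 to 369 CPM in MPP, and the 7 stroma and endothelium markers to 46.4 to 124.7 CPM and 125.2 to 237 CPM. Only 1 of the 8 and 2 of the 7 had enough counts to be tested, so these sums do not speak for the whole lists. Nfat5 and Ifnar1 RNA did not follow the genotype labels. In the order WT, N5, IFNAR, DKO, Nfat5 stood at 33.0, 22.5, 3.10 and 35.4 CPM in HSC and at 5.57, 7.66, 0.192 and 11.5 CPM in the matching MPP libraries. Ifnar1 stood at 121, 125, 113 and 34.9 CPM in HSC and at 37.0, 87.5, 43.5 and 125 CPM in MPP. Counts per gene do not show whether the reads fall inside the deleted parts, so genotypes below are those of the labels.

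RNA levels of the pathway rest in part on its promoters, so short stretches are shown for some of the genes that differed in 1 direction in all 4 genotypes (below). A stretch had to carry the core of the hypoxia response element before the start and to overlap no GENCODE M21 exon. The core was searched as ACGTG or GCGTG on either strand, in windows from 250 bases before to 50 bases after each RefSeq start (GRCm38.p6). ACGTG overlaps the E-box CACGTG, which is read on both strands. Capitals mark the core. All 4 stretches lie upstream of the start used, on an assembly earlier than the one the counts were made on, and overlap no GENCODE M21 exon. Hk1 and Pkm also differed in 1 direction in all 4 genotypes and held the core in 1 window each. No stretch of theirs met these conditions, so none is shown.
Hk2 (chr6:82774474-82774533, minus strand): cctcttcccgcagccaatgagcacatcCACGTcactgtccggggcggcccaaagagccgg
Aldoa (chr7:126799348-126799407, minus strand): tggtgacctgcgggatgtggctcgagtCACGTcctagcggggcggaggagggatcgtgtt
Gapdh (chr6:125165785-125165844, minus strand): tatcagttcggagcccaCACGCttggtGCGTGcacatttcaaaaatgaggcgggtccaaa
Ldha (chr7:46845743-46845802, plus strand): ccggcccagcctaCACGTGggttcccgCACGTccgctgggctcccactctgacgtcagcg
The core stood in 13 of the 17 windows of the 10 genes, or 76.5%, against 43.8% of all 32851 windows. At least 1 window of 9 of the 10 genes held it, the exception being Gpi1, against 12628 of all 27025 genes. The 10 genes had 17 windows, and a gene with more windows has more places for a match. Of the stretches shown, those of Hk2, Aldoa and Ldha belong to genes higher in HSC in each genotype and that of Gapdh to a gene lower in each, so the letters alone did not separate the directions. A match is a description of the sequence and not of binding.

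The summed level of glycolytic enzyme RNA did not separate HSC from MPP. The 10 genes and the second Aldoa entry together took 7558 to 8246 CPM in the 4 HSC libraries (mean 7774 ± 318, SD, n = 4) and 7228 to 8218 CPM in the 4 MPP libraries (7885 ± 457), and these ranges overlapped. Single enzymes differed in direction. Hk1, Hk2, Aldoa and Ldha were higher in HSC in each of the 4 genotypes, and Gpi1, Gapdh and Pkm were lower in each, while Pfkl, Pgk1 and Eno1 had no steady direction. By edgeR's quasi-likelihood test with Benjamini-Hochberg adjustment over all genes, none of the 11 entries passed an adjusted p of 0.05, where 2 of 12132 genes (0.0165%) did. In bulk RNA, fewer cells of a type and less RNA per cell cannot be told apart.

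**Figure D1:**
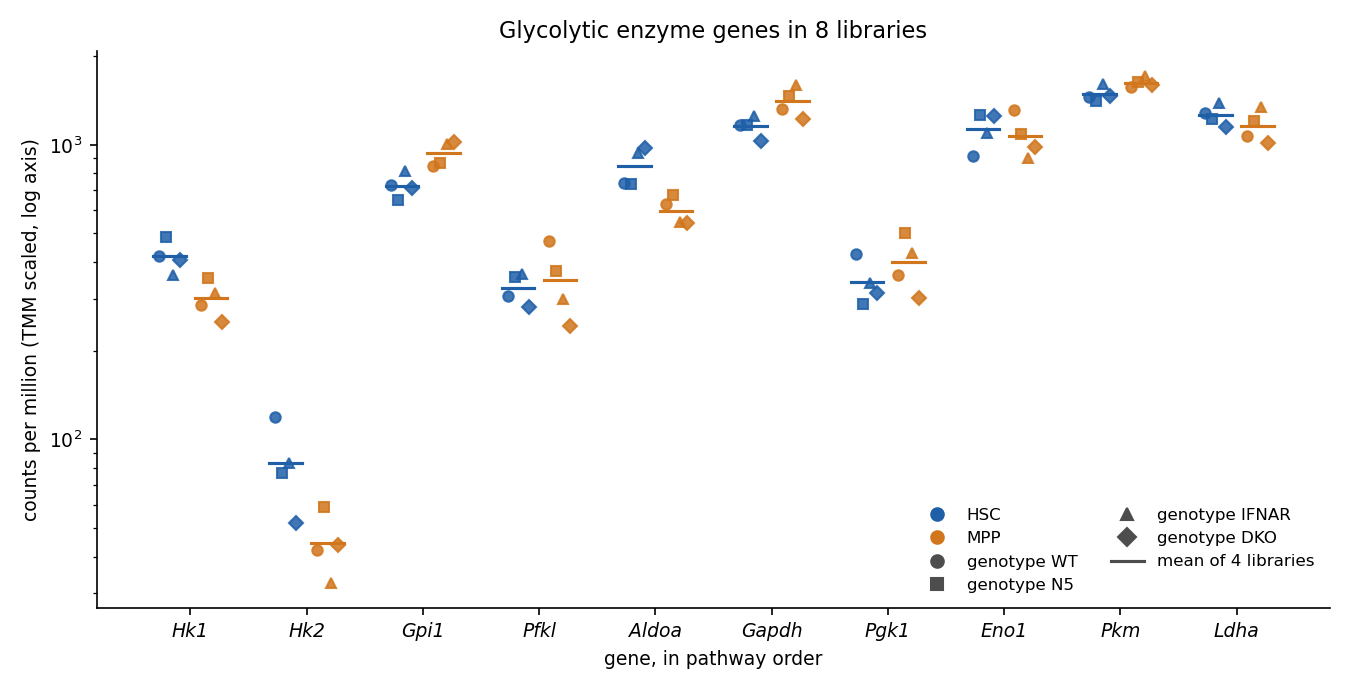
Levels of the 10 genes in CPM on a log axis, with 1 point per library, the genotype as the symbol, and a bar at the mean of 4 libraries. HSC and MPP points are apart for Hk1, Gpi1 and Aldoa and overlap for the other 7 genes.

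Hexokinases trap glucose in the cell as glucose 6-phosphate. Hk1, the widely expressed form, stood at 418, 488, 362 and 407 CPM in the WT, N5, IFNAR and DKO libraries of HSC, and at 287, 354, 315 and 251 CPM in those of MPP. Every HSC library was above every MPP library. The mean was 1.39-fold higher in HSC (419 ± 52.0 against 302 ± 43.8 CPM, SD, n = 4 each), with a fitted log2 difference of 0.48 (SE 0.13, 95% interval 0.15 to 0.80, edgeR adjusted p = 0.334). Hk2, the inducible form that binds mitochondria in many growing cells, stood at 119, 77.0, 83.4 and 52.1 CPM in HSC and at 42.1, 59.2, 32.7 and 43.8 CPM in MPP. Its lowest HSC library, DKO, was below the highest MPP library, N5, so the groups overlapped. The fitted log2 difference of Hk2 was the largest of the 10 genes at 0.87 (SE 0.36, edgeR adjusted p = 0.523), and it ranged from 0.24 in DKO to 1.46 in WT.

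Gpi1 turns glucose 6-phosphate into fructose 6-phosphate, the branch point with the pentose phosphate pathway. It stood at 730.1, 648, 816 and 713 CPM in HSC and at 847, 868, 1005 and 1024 CPM in MPP. Every HSC library was below every MPP library. The fitted log2 difference was -0.36 (SE 0.10, edgeR adjusted p = 0.354), which is 1.29-fold more in MPP on the means. Pfkl, the liver-type subunit of phosphofructokinase, the committed step, stood at 306, 355, 366 and 281 CPM in HSC. In MPP it stood at 473, 374, 300.5 and 242 CPM, wider apart than in HSC and on both sides of them. Its fitted log2 difference was -0.05 with a 95% interval of -0.53 to 0.43.

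Aldoa splits fructose 1,6-bisphosphate into a pair of triose phosphates. It stood at 742, 736, 939 and 978 CPM in HSC and at 628, 674, 546 and 544 CPM in MPP, again without overlap. The mean was 1.42-fold higher in HSC (849 ± 128 against 598 ± 64.0 CPM), with a fitted log2 difference of 0.50 (SE 0.17, edgeR adjusted p = 0.408). The difference was smaller in the WT and N5 pairs, at 0.24 and 0.13 log2, than in the IFNAR and DKO pairs, at 0.78 and 0.84 log2. The test of that contrast is given with the genotypes.

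Gapdh, which oxidises glyceraldehyde 3-phosphate and yields NADH, stood at 1168, 1167, 1252 and 1032 CPM in HSC and at 1328, 1467, 1592 and 1225 CPM in MPP. It was lower in HSC in each genotype, by 0.19 to 0.35 log2, but the HSC library of IFNAR lay above the MPP library of DKO. The fitted log2 difference was -0.28 (SE 0.09, edgeR adjusted p = 0.401). Gapdh is often used as a reference gene, and here its mean was 1.21-fold higher in MPP. Pgk1, the first of the ATP-forming steps, stood at 425, 288, 339.6 and 313 CPM in HSC and at 361, 503, 429.6 and 303 CPM in MPP. The groups overlapped widely, and the difference ran from -0.80 log2 in N5 to 0.24 in WT (fitted -0.21, 95% interval -0.73 to 0.30). Eno1, which forms phosphoenolpyruvate, stood at 914, 1264, 1094 and 1253 CPM in HSC and at 1313, 1084, 901 and 981 CPM in MPP. It was lower in HSC in the WT pair alone and higher in the other 3, with a fitted log2 difference of 0.09 (SE 0.18).

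Pkm, the pyruvate kinase gene of most dividing cells, was the steadiest of the 10. It stood at 1453, 1404, 1610.4 and 1464 CPM in HSC and at 1568, 1628, 1711 and 1598 CPM in MPP. It was lower in HSC in each genotype by 0.09 to 0.21 log2, and the fitted difference was -0.13 (95% interval -0.35 to 0.08). Counts per gene do not tell the PKM1 from the PKM2 form. Ldha, which makes lactate and restores NAD+, stood at 1282, 1219, 1382 and 1146 CPM in HSC and at 1072, 1204, 1339 and 1016 CPM in MPP. It was higher in HSC in each genotype, by only 0.02 log2 in N5 and at most 0.26 log2 in WT, with a fitted value of 0.13 (95% interval -0.11 to 0.36).

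**Figure D2:**
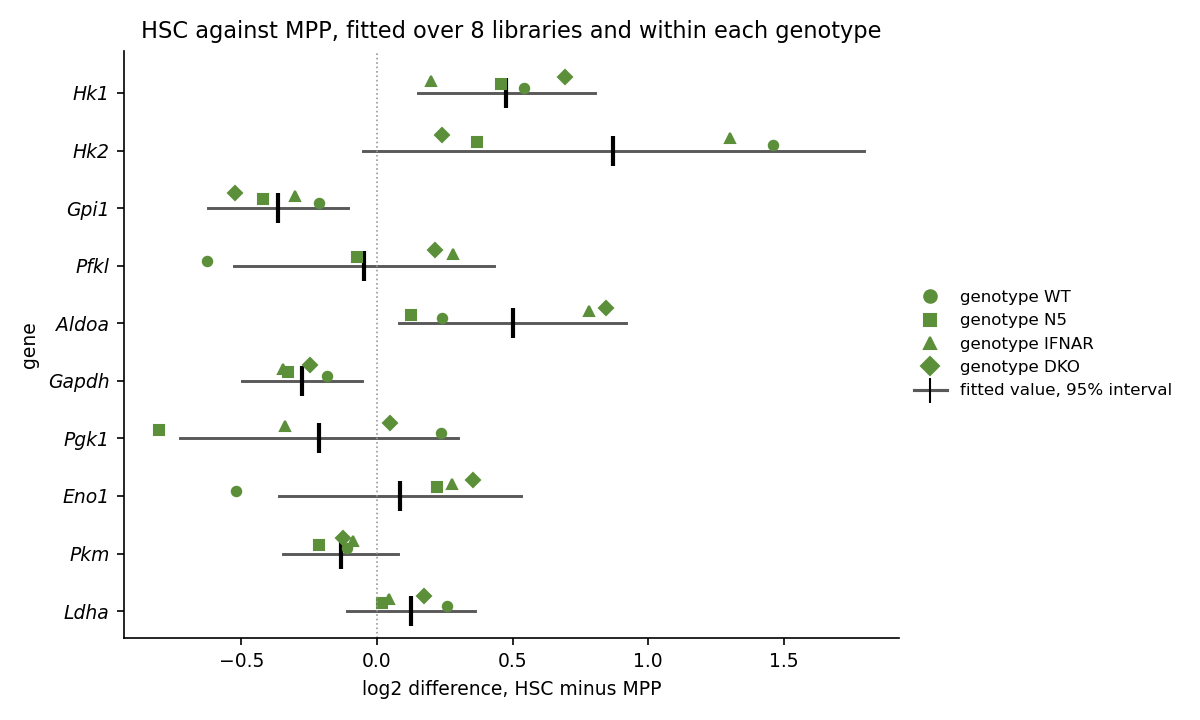
Log2 difference of HSC minus MPP for the 10 genes, with a black tick at the value fitted over 8 libraries, a line for its 95% interval, and a green point for each genotype pair. The 4 points are to the right of 0 for Hk1, Hk2, Aldoa and Ldha, to the left for Gpi1, Gapdh and Pkm, and on both sides for Pfkl, Pgk1 and Eno1.

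These counts were read against the other genes. Hk1, Gpi1 and Aldoa, 3 of 11 entries, had HSC and MPP libraries that did not overlap, against 10.4% of all genes tested. In the 2 directions these were 2 entries higher in HSC, against 4.74% of genes, and 1 lower, against 5.66%. Abundant genes separate more often: of the 198 genes with a mean of 500 to 2000 CPM, 30.8% did not overlap, and 2 of the 6 members in that range, Gpi1 and Aldoa, did not. In the range of 100 to 500 CPM it was 15.5% of genes and 1 of 3 members, Hk1. The same direction in 4 of 4 genotypes was seen for 7 of 11 entries, against 21.8% of all genes and 43.9% of those at 500 to 2000 CPM, where 5 of the 6 members had it. Before adjustment, 4 entries (Hk1, Gpi1, Aldoa and Gapdh) had an edgeR p under 0.05, against 10.1% of genes. At 500 to 2000 CPM it was 36.4% of genes and 3 of the 6 members, and at 100 to 500 CPM 22.1% and 1 of 3. DESeq2 called those same 4 entries at an adjusted p under 0.05, where it called 15.5% of all genes. The median log2 difference of the 11 entries was 0.09, with 6 higher and 5 lower in HSC, beside a median of -0.10 over all genes. The 6 include the second Aldoa entry, which held at most 2.24 CPM. With a filter of 10 CPM in 4 libraries, which left the 10 genes, the median was 0.03. Changes were also simulated over all genes with a mean of 10 CPM or more, at the spread of these libraries. There the edgeR test called 0 of 200 genes changed 1.5-fold, 2 of 200 changed 2-fold and 77 of 200 changed 4-fold. The fitted differences of the 10 genes were all under 2-fold. Recovery at the abundance and spread of the 10 genes was not simulated. The simulated counts therefore do not show how often changes of that size in these genes would be called.

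At matched abundance the members varied less between genotypes than other genes in HSC but, from 100 CPM up, not in MPP. Within HSC, the SD of log2 CPM over the 4 genotypes had a median of 0.13 for the 6 members at 500 to 2000 CPM, against 0.18 for all genes of that range, and within MPP it was 0.16 against 0.15. Pkm had the lowest SD of the 10 in both cell types, at 0.08 in HSC and 0.05 in MPP. Hk2 had the highest in HSC at 0.48, near the 0.59 of all genes at 50 to 100 CPM, and Pfkl the highest in MPP at 0.41.

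Levels can be compared between genes only per transcript length. Divided by the length of the principal transcript in GENCODE M21, Gapdh was the most abundant in HSC at 813 ± 64.2 CPM per kilobase (SD, n = 4), followed by Ldha at 712, Pkm at 609.8, Aldoa at 562, Eno1 at 558, Gpi1 at 252, Pgk1 at 187, Hk1 at 109, Pfkl at 87.7 and Hk2 at 15.0. The ranges over the 4 HSC libraries overlapped between each neighbour in that order except between Eno1 and Gpi1, between Pgk1 and Hk1, and between Pfkl and Hk2. In MPP the order was Gapdh at 988, Pkm at 669, Ldha at 656, Eno1 at 528, Aldoa at 396, Gpi1 at 325, Pgk1 at 219, Pfkl at 93.1, Hk1 at 78.3 and Hk2 at 8.06 CPM per kilobase. Between the cell types, Ldha and Pkm, Aldoa and Eno1, and Hk1 and Pfkl exchanged places, but the ranges of each of these pairs overlapped in HSC and in MPP.

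Several steps have more than 1 gene, and the mix of hexokinases differed between the cell types. In HSC, Hk1 took 66.6% to 74.9% of hexokinase counts, Hk2 9.59% to 19.7% and Hk3 11.4% to 18.01%. In MPP, Hk1 took 44.3% to 50.3%, Hk2 4.96% to 8.40% and Hk3 41.3% to 48.7%, and none of the 3 shares overlapped between the cell types. The same held after division by transcript length, where Hk3 took 14.1% to 21.8% in HSC and 46.8% to 54.2% in MPP. Hexokinase counts in sum overlapped, at 543 to 678 CPM in HSC and 566 to 704 CPM in MPP. Hk3, a form found mainly in myeloid and other blood cells, stood at 68.8, 113, 97.8 and 84.0 CPM in HSC and at 312, 291, 311 and 271 CPM in MPP. Its fitted log2 difference was -1.72 (SE 0.18), and it missed the threshold with an edgeR adjusted p of 0.0831. Hkdc1 had no count, which allows up to 0.0190% of hexokinase counts in the library with the fewest, by the exact 95% binomial interval. Of Hk1 and Hk2 alone, Hk1 took 77.8% to 88.7% in HSC and 85.1% to 90.6% in MPP, which overlapped. The widest exact 95% binomial interval of any such share spanned 1.58 percentage points, for counting error only.

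**Figure D3:**
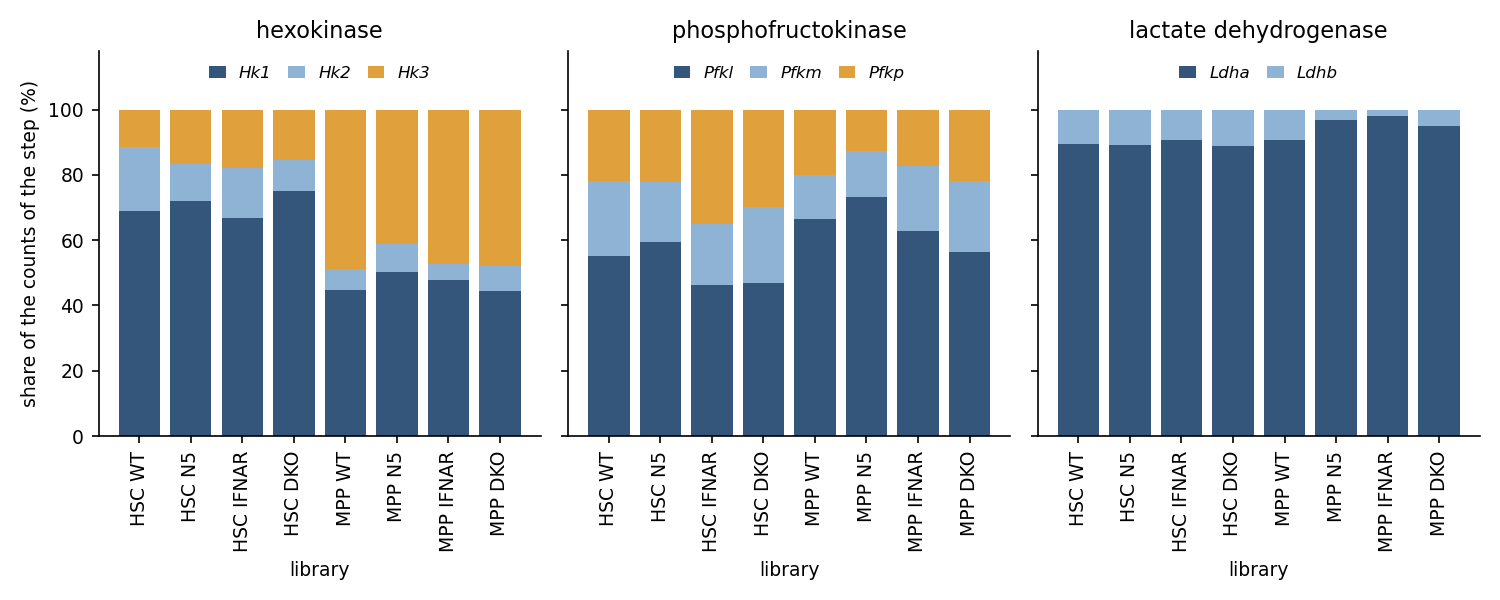
Share of the counts of each step taken by each of its genes, in percent, with 1 bar per library. Hk3 takes 11.4% to 18.01% of hexokinase counts in HSC and 41.3% to 48.7% in MPP, Pfkl shares overlap between the cell types, and Ldhb takes 9.33% to 11.0% in HSC and 2.06% to 9.31% in MPP.

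At the other steps the member was the main gene. Ldha took 89.0% to 90.67% of lactate dehydrogenase counts in HSC and 90.69% to 97.9% in MPP, ranges that met without overlapping. The rest was Ldhb, whose subunits favour the turn of lactate into pyruvate, at 152, 147, 142 and 142 CPM in HSC and at 110.0, 39.8, 28.1 and 52.4 CPM in MPP (log2 difference 1.54, SE 0.36, edgeR adjusted p = 0.301). Pfkl took 46.2% to 59.4% of phosphofructokinase counts in HSC and 56.3% to 73.1% in MPP, beside Pfkm and Pfkp. Aldoa took at least 91.9% of aldolase counts in each library, Eno1 at least 95.9% of enolase counts and Pkm at least 98.3% of pyruvate kinase counts. Gapdh and Pgk1 were almost the sole genes of their steps.

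Beyond the 10 genes, 56 further genes of the pathway and its branches were listed, and 42 of them could be tested. None passed the edgeR threshold. At an unadjusted p under 0.05, 3 were higher in HSC and 5 lower, 8 of 42 against 10.1% of all genes. The 8 are named here because of those values. Ldhb, Pfkm and Pdk2 were the higher ones. Pdk2, a kinase that switches off pyruvate dehydrogenase, stood at 75.9 ± 12.7 CPM in HSC and 39.0 ± 14.2 CPM in MPP (SD, n = 4). Pfkm, the muscle-type phosphofructokinase subunit, stood at 132 ± 16.7 against 89.5 ± 11.9 CPM. The lower ones were Hk3, Pgam1, G6pdx, Tkt and Taldo1. Pgam1, the phosphoglycerate mutase between Pgk1 and Eno1, stood at 142, 217, 214 and 191 CPM in HSC and at 495, 507, 490.2 and 406 CPM in MPP. Its fitted log2 difference was -1.33 (SE 0.16, edgeR adjusted p = 0.127), larger in size than that of any of the 10 genes. Hk3 and Pgam1 each passed an adjusted p of 0.05 in 4 of 17 ways of fitting the comparison (bias-adjusted edgeR, edgeR without the genotype term, limma-voom and DESeq2), and in none that left out a library. DESeq2 also called Ldhb (adjusted p = 0.000192), Pfkm (0.000500), Pdk2 (0.00394), Tkt (0.0251) and G6pdx (0.0458), but not Taldo1 (0.0547), where it called 15.5% of all genes. None of these 6 was called in any of the other 16 fits.

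All 6 tested genes of the pentose phosphate branch, which leaves glycolysis at glucose 6-phosphate and yields NADPH and ribose, had fitted values below 0, with a median of -0.40 log2. Tkt, a transketolase, stood at 504 ± 84.5 CPM in HSC and 784 ± 152 CPM in MPP, without overlap (log2 difference -0.63, edgeR adjusted p = 0.431). Taldo1, a transaldolase, stood at 369.6 ± 69.4 against 489 ± 5.71 CPM, also without overlap (-0.42, edgeR adjusted p = 0.449). Of the 6 glucose and lactate transport genes tested, 5 had fitted values above 0, with a median of 0.93, and none had an unadjusted p under 0.05. That count and median rest in part on Slc16a7 (2.34, SE 15.8) and Slc16a3 (4.43, SE 8.23), which were at 0 CPM in some libraries. The mean of Slc16a7 was in fact lower in HSC, at 11.0 against 18.8 CPM. Slc2a1, the GLUT1 glucose carrier, stood at 92.8 ± 24.5 CPM in HSC and 50.7 ± 27.5 CPM in MPP, and overlapped. Of the 13 genes tested for pyruvate entry into mitochondria, 6 were above and 7 below 0. The 6 further genes with the largest fitted values at 10 CPM or more were Eno3, Hk3, Pfkfb4, Fbp1, Slc16a7 and Slc16a3. Apart from Hk3 these had low or uneven counts: Fbp1, the bisphosphatase of gluconeogenesis, stood at 0 to 11.6 CPM in HSC and 17.5 to 45.7 CPM in MPP, and the other 4 overlapped between the cell types.

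Other gene groups also differed between HSC and MPP in their summed levels. The 20 proliferation genes had fitted values below 0, with a median of -0.94 log2 beside -0.10 over all genes. Of them 13 were lower in HSC without overlap, against 5.66% of all genes. The summed level was 3652 to 4451 CPM in HSC and 6726 to 7952 CPM in MPP. Summed megakaryocyte and platelet markers were at 1231 to 1699 CPM in HSC and 139 to 307 CPM in MPP. Erythroid markers were at 1698 to 2029 CPM in HSC and 776 to 1158 CPM in MPP, but the list was split. Of its 9 genes tested, 5 had fitted values above 0 and 4 below. Neutrophil markers were at 680.3 to 795 CPM and 804 to 2547 CPM, and monocyte and macrophage markers at 0.0324 to 73.9 CPM and 125 to 317 CPM. The 9 neutrophil markers tested were also split, with 5 above 0, 4 below and a median of 0.12 log2. Their sum does not speak for the whole list. B cell markers overlapped in sum, at 30.5 to 102 CPM in HSC and 67.3 to 91.1 CPM in MPP, but not gene by gene. Of the 4 B cell markers tested, 3 were lower in HSC without overlap, against 5.66% of all genes, and 1 had a fitted value above 0. The part of these groups, and of the T, NK and stroma markers above, in the enzyme levels was not tested.

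No difference of the members between the labelled genotypes passed the test. For libraries labelled Nfat5-deficient (N5 and DKO) against the others, edgeR called none of the 11 entries and 0% of all genes. None had an unadjusted p under 0.05, against 2.79% of genes. Fitted log2 differences of the 10 genes ran from -0.22 for Pfkl to 0.11 for Eno1, and the median of the 11 entries was -0.10, beside 0.02 over all genes. No member had the same direction in all 4 matched pairs, which 11.2% of genes had. Hk2 was lower in both HSC pairs, by 0.62 and 0.66 log2, and higher in both MPP pairs, by 0.47 and 0.40 log2. Gpi1 was lower in both HSC pairs and higher in both MPP pairs, in the latter by at most 0.04 log2. Such opposed pairs were seen for 12.2% of all genes. The test of the difference between cell types gave an edgeR adjusted p of 1 for each, called 0% of genes, and had 4.42% of them at an unadjusted p under 0.05, none of them a member. Of the 42 further pathway genes tested, edgeR called none for Nfat5, and 1, the lactate carrier Slc16a1, had an unadjusted p under 0.05. The 6 with the largest fitted values at 10 CPM or more (Bpgm, Pfkfb2, Pfkfb4, Fbp1, Slc16a7 and Slc16a3) had low or uneven counts.

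**Figure D4:**
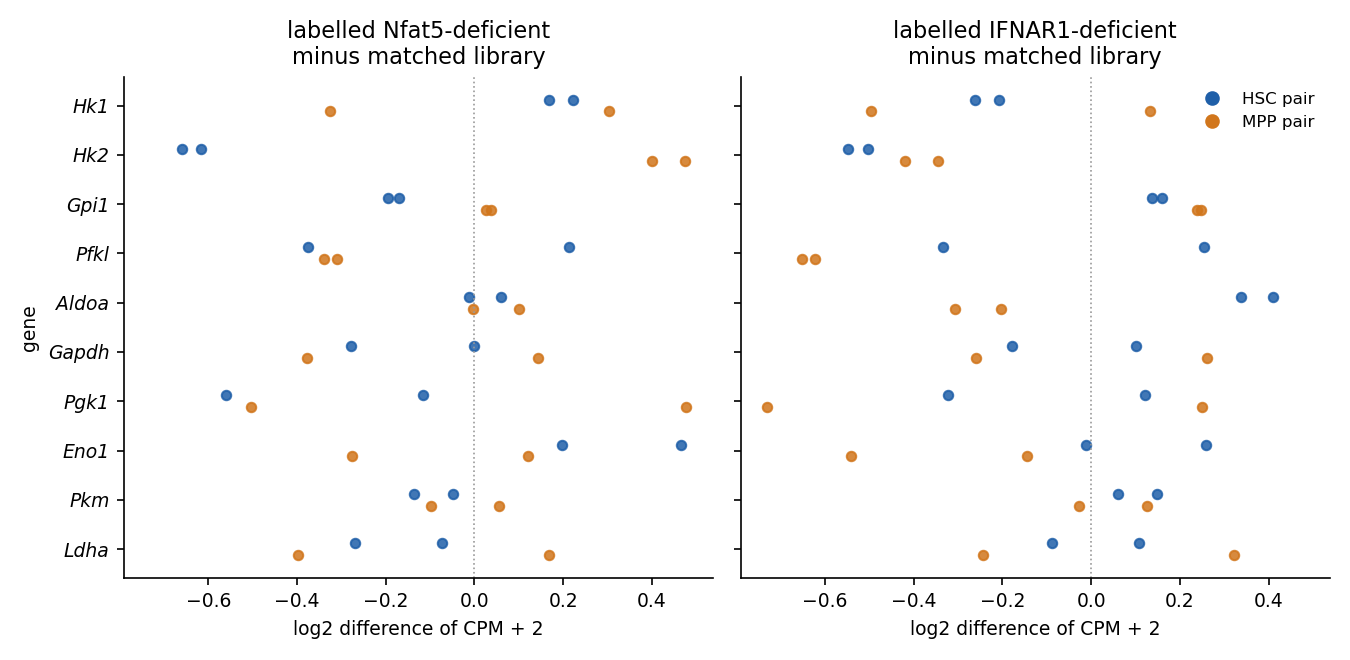
Log2 difference of CPM, after adding 2 CPM, between libraries labelled deficient and their matched library, for Nfat5 (N5 minus WT, DKO minus IFNAR) and IFNAR1 (IFNAR minus WT, DKO minus N5), with 1 point per pair. Hk2 points lie below 0 in HSC and above 0 in MPP for Nfat5, and all 4 lie below 0 for IFNAR1, where Aldoa points lie above 0 in HSC and below 0 in MPP.

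For libraries labelled IFNAR1-deficient (IFNAR and DKO) against the others, edgeR again called none of the 11 entries and 0% of genes, and none had an unadjusted p under 0.05, against 3.28% of genes. Hk2 was lower in all 4 matched pairs, by 0.34 to 0.55 log2 (fitted -0.47, SE 0.32), and Gpi1 was higher in all 4, by 0.14 to 0.25 log2 (fitted 0.20, SE 0.09). The share of genes with 1 direction in all 4 pairs was 12.1%, and 2 of 11 entries had it. The median of the 11 entries was -0.12, beside -0.01 over all genes. Aldoa was higher in both HSC pairs and lower in both MPP pairs, and so was its second entry, whose levels are near 0. Opposed pairs of this kind were seen for 12% of genes. For Aldoa the difference between the cell types was 0.63 log2 (SE 0.18, 95% interval 0.16 to 1.09, edgeR adjusted p = 0.921). It was the only member with an unadjusted p under 0.05 in that test, against 4.82% of genes, and no gene was called (0%). None of the 42 further pathway genes had an unadjusted p under 0.05 for IFNAR1, and the 6 with the largest fitted values were Eno3, Pfkfb2, Pfkfb4, Slc16a3, Pdp2 and Pdpr. Both genotype comparisons use all 8 libraries, so their values are not independent.

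By their profile over the 8 libraries, the genes nearest to the mean of the members were Hnrnph2, Bub3, Hsp90ab1, Dapp1 and Vbp1. The root mean square difference of their centred log2 levels was 0.08 to 0.11 among 8889 genes compared. Each of these 5 had nearly equal means in the cell types, such as 3904 CPM in HSC and 4021 CPM in MPP for Hsp90ab1. The mean profile was itself nearly flat, from -0.21 in the DKO library of MPP to 0.12 in the IFNAR library of HSC. The members lay 0.10 (Ldha) to 0.49 (Hk2) from it by the same measure. A gene near this mean therefore need not follow any single member.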

How the data were processed

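The counts, whole numbers per gene and library, are in 1 table of 8 libraries as deposited by the authors, not normalized. Libraries were made from polyadenylated RNA with the Smart-Seq2 protocol, per the labels' protocols, and the submitters' processing notes name STAR 2.7.8a, RSEM 1.3.0 and the build GRCm39. Not given in the sources used here: the annotation release, read filters, strand setting and rounding. Reads were counted without molecular identifiers. The binomial intervals of shares take each read as independent and leave out the spread between libraries. The intervals of fitted log2 differences come from the edgeR fits, which include that spread.

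Cell type and genotype came from the labels. Counts were tested with edgeR 4.0.16 (R 4.3.3; quasi-likelihood, TMM, filterByExpr by cell type) over all 12132 genes kept, which held 99.5% of counts, with Benjamini-Hochberg adjustment. HSC against MPP had genotype as a block. Each genotype effect was fitted beside cell type and the other genotype, and its difference between cell types in a further fit. CPM are TMM-scaled, and log2 differences of single pairs add 2 CPM. limma 3.58.1 (voom), DESeq2 1.42.0 and the other alternatives are in the closing section. The edgeR script was tested on simulated data. Lengths are from GENCODE M21 and promoter windows from RefSeq (GRCm38.p6), matched by symbol for 10 of 10 genes.

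The members, the gene lists and the tests were chosen with earlier results of these data known. The genes named were the 10 members, per comparison the 6 listed pathway genes with the largest fitted change at a mean of 10 CPM or more, the 5 genes nearest in profile (predicted genes, Rik genes, pseudogenes and sex-linked markers left out), Nfat5 and Ifnar1. All others were named after their values were seen. Of 15 named copies of the members, 12 stayed under 1.5 CPM in each library. Counts cannot be split with certainty between a gene and its copies, and Hk1os lies antisense to Hk1.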

Additional observations from a re-analysis of the deposited data

Results flagged for a closer look

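For 3 of the 10 genes both HSC pairs of a genotype comparison went one way and both MPP pairs the other, and each was set beside the test of that difference. For Nfat5, the HSC minus MPP difference of the effect was -1.11 log2 for Hk2 (SE 0.50, 95% interval -2.39 to 0.17, edgeR adjusted p = 1) and -0.21 log2 for Gpi1 (edgeR adjusted p = 1). For IFNAR1 it was 0.63 log2 for Aldoa (edgeR adjusted p = 0.921), and 3.01 log2 with an SE of 3.79 for the second Aldoa entry, which held at most 2.24 CPM. None of the 22 groups of 4 libraries, 1 per entry and cell type, held a single library beyond Dixon's limit, where chance gives about 1 in 20.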

How the results depend on the processing

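HSC and MPP libraries were paired by genotype in the reported fit, and each group is 1 library. The count of members called for HSC against MPP stayed at 0 in 15 of 16 alternatives, among them RLE scaling, both other filters, bias-adjusted edgeR, limma-voom, no genotype term and leaving out each library, and was 4 with DESeq2. The cause of that difference was not tested. For both genotype comparisons it was 0 throughout. The smallest adjusted p of a member for HSC against MPP ran from 0.103 (limma-voom) to 0.612, apart from 0.000516 with DESeq2. Across all genes the number called for HSC against MPP was 2 in the reported fit, 23 with a filter of 10 CPM in 4 libraries, 107 with bias-adjusted edgeR, 156 with limma-voom, 207 without the genotype term, 1880 with DESeq2, and 0 without any 1 library.

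Leaving out 1 library at a time, the median log2 difference of the members for HSC against MPP ran from -0.14 (without either DKO library) to 0.14, Pfkl from -0.16 to 0.14 (above 0 without either WT library) and Eno1 from -0.0042 to 0.29 (below 0 without either DKO library), while the other 8 genes kept their direction. For Nfat5, Hk2 ran from -0.28 to 0.079, Aldoa from -0.059 to 0.13 and Eno1 from -0.018 to 0.29. For IFNAR1, Aldoa ran from -0.036 to 0.15, Gapdh from -0.093 to 0.043, Pgk1 from -0.32 to 0.012, Eno1 from -0.26 to 0.048 and Ldha from -0.058 to 0.097. With MPP libraries alone, the Nfat5 values were 0.47 for Hk2, 0.045 for Gpi1, 0.00012 for Pgk1 and -0.064 for Eno1, and the IFNAR1 values -0.25 for Aldoa and 0.0096 for Gapdh, each opposite in sign to the reported value. With HSC libraries alone, Eno1 was at 0.12 for IFNAR1. None of these was called in either fit, and the cause of the reversals was not tested. Each group was 1 pool, and the fits had 3 or 4 residual degrees of freedom. Of changes simulated over all genes with a mean of 10 CPM or more, 1% at 2-fold and 38.5% at 4-fold were recovered for HSC against MPP. Recovery at the abundance and spread of the members was not simulated separately.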
